A study of Mus musculus with 12 samples.

Results

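The genes described here are 41 genes of the actin cytoskeleton and of serum response factor (SRF), the transcription factor that drives many of them. They were chosen by symbol from a fixed list, taking every probe set annotated to a single one of those symbols. The list covers 41 of the 18193 genes that the array annotation names, through 111 of 45101 probe sets. Of the 111 probe sets, 3 are array controls for Actb and are described separately, and 97 of the other 108 passed the filter on low values. Every one of the 41 genes had at least one probe set that passed, and no gene's mean in any group lay below the filter level of 5.56 on the log2 scale (an intensity of 47.2).

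RNA came from mouse embryonic stem cells, which are pluripotent cells that renew themselves in culture. The 4 groups were Tcf3-/- cells with Wnt3a, Tcf3+/+ cells with Wnt3a, Tcf3-/- cells in control medium and Tcf3+/+ cells in control medium, with 3 Affymetrix arrays each (12 in all). They are called KO and WT cells below. Tcf3 in the labels is the gene now named Tcf7l1, which encodes a DNA-binding partner of beta-catenin, and Wnt3a is a secreted ligand that stabilises beta-catenin. Wnt3a was given at 50 ng/ml for 24 h. Cells of every group grew on gelatin with serum and Lif and without feeder cells. The labels name no parental line, do not say how many clones were used, and do not say whether replicates were separate cultures. The p-values therefore measure the spread between arrays, which may be technical.

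Actin monomers assemble into filaments that are nucleated by the Arp2/3 complex, capped, severed by cofilin, coated by tropomyosins, bundled by alpha-actinin and filamin, and pulled by non-muscle myosin II. Filaments end at focal adhesions, where talin, vinculin and zyxin link them to integrins. SRF binds the CArG box and, with its cofactors Mrtfa and Mrtfb, senses how much actin is unpolymerised: free actin monomers hold the cofactors back, and filament assembly releases them to activate actin genes and genes for actin-binding proteins. In embryonic stem cells this network shapes colonies, their cortical tension and their grip on the culture surface.

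The CArG boxes near the start sites of the member genes are shown first, because they are the sequence feature by which SRF-linked genes are usually recognised. RefSeq promoters of build GRCm38.p6 were available for 40 of the 41 members, as windows of 250 bases before to 50 bases after each start site. A CArG box, a site of 10 bases whose pattern reads the same on both strands, stood in a window of 9 of these 40 genes (22.5%), against 488 of 27025 genes in the whole table (1.81%). Over windows of the same length, 10 of 51 member promoters and 535 of 32851 promoters in all (1.63%) held one. The list was put together from actin and SRF-linked genes, so a larger share with the box is bound up with that choice and is not a separate result. The stretches below run 5′ to 3′ on the strand of the gene, with each CArG box in capitals.
Srf (chr17:46556180-46556279, minus strand): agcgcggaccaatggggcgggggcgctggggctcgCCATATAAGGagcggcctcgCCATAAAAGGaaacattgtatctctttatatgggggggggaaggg
Myl9 (chr2:156775268-156775347, plus strand): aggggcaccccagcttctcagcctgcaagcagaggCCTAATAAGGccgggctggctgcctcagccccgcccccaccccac
Cnn2 (chr10:79988509-79988588, plus strand): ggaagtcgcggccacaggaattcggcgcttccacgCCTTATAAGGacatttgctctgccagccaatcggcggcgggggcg
Vcl (chr14:20929148-20929215, plus strand): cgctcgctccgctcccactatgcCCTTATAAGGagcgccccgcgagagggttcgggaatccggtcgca
Actg1 (chr11:120348541-120348620, minus strand): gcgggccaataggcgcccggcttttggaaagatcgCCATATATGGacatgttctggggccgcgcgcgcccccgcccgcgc
Fhl2, downstream promoter (chr1:43163962-43164027, minus strand): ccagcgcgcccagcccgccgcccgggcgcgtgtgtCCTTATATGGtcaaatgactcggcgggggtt
Fhl2, upstream promoter (chr1:43196813-43196892, minus strand): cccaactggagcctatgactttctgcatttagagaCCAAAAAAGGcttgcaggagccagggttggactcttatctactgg
Fhl1 (chrX:56779546-56779625, plus strand): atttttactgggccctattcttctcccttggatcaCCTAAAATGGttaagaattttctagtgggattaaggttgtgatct
Myl6 (chr10:128493015-128493094, minus strand): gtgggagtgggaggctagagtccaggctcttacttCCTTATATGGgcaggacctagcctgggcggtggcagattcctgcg
Lima1 (chr15:99820152-99820231, minus strand): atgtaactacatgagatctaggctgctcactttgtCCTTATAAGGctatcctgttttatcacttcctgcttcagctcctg

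All printed stretches lie before the start site. The boxes begin 31 bases (Fhl2) to 227 bases (Vcl) before it, and Srf carries 2 of them, beginning 82 and 62 bases before its own start. A match describes the letters in the window and says nothing about whether SRF was bound.

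Several facts about the arrays bear on all results. The targeted gene Tcf7l1 averaged 9.47 ± 0.11 in KO cells and 10.85 ± 0.07 in WT cells in control medium (log2 intensity, SD, n = 3 each), and it was lower in KO cells in Wnt3a medium too, at 9.10 ± 0.18 against 10.37 ± 0.15. All 7 embryonic stem cell markers checked (Pou5f1, Sox2, Nanog, Zfp42, Dppa5a, Utf1 and Tdgf1) were above the filter level in all groups, and 6 of them were higher in KO cells in control medium, Nanog by 0.99. Bacterial control RNAs added during preparation differed between the media: the dap probe set at the 3′ end read 11.60 to 11.82 on the Wnt3a arrays and 4.35 to 4.48 on the control-medium arrays, so the Wnt3a treatment and the preparation of the arrays cannot be told apart. The median intensity was also lower on every Wnt3a array, at 68.3 to 70.1, against 71.6 to 73.4 on the control-medium arrays. Knockout comparisons are made within a medium. A Wnt3a effect below means the difference between Wnt3a and control medium, whatever its source. Members deviated together within the WT control group. On WT control array 2, 40 of the 41 lay below the mean of their group, against 42.0% of all genes, and on WT control array 1 only 2 of the 41 did, against 55.9% of all genes.

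In control medium the actin and SRF-linked genes were mostly lower in KO than in WT cells. Of the 41 genes, 32 were lower and 1 was higher, at a limma adjusted p under 0.05, with 22.3% of all 13811 genes tested called lower and 19.9% called higher. The median difference over the members was -0.61 on the log2 scale, beside 0.01 over all genes. The values were lower by at least 2-fold for 17 members, beside 4.24% of all genes. The 3 KO arrays all lay below the 3 WT arrays for 37 members, as they did for 28.1% of all genes. Because RNA was measured in bulk, fewer cells of a type and less RNA per cell cannot be told apart. The plot of every member on every array shows most members below the WT control mean in the KO columns of both media. In the WT Wnt3a columns 27 to 32 of the 41 members also lie below it. The plot therefore does not separate the knockout difference in Wnt3a medium from the difference between media.

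**Figure D1:**
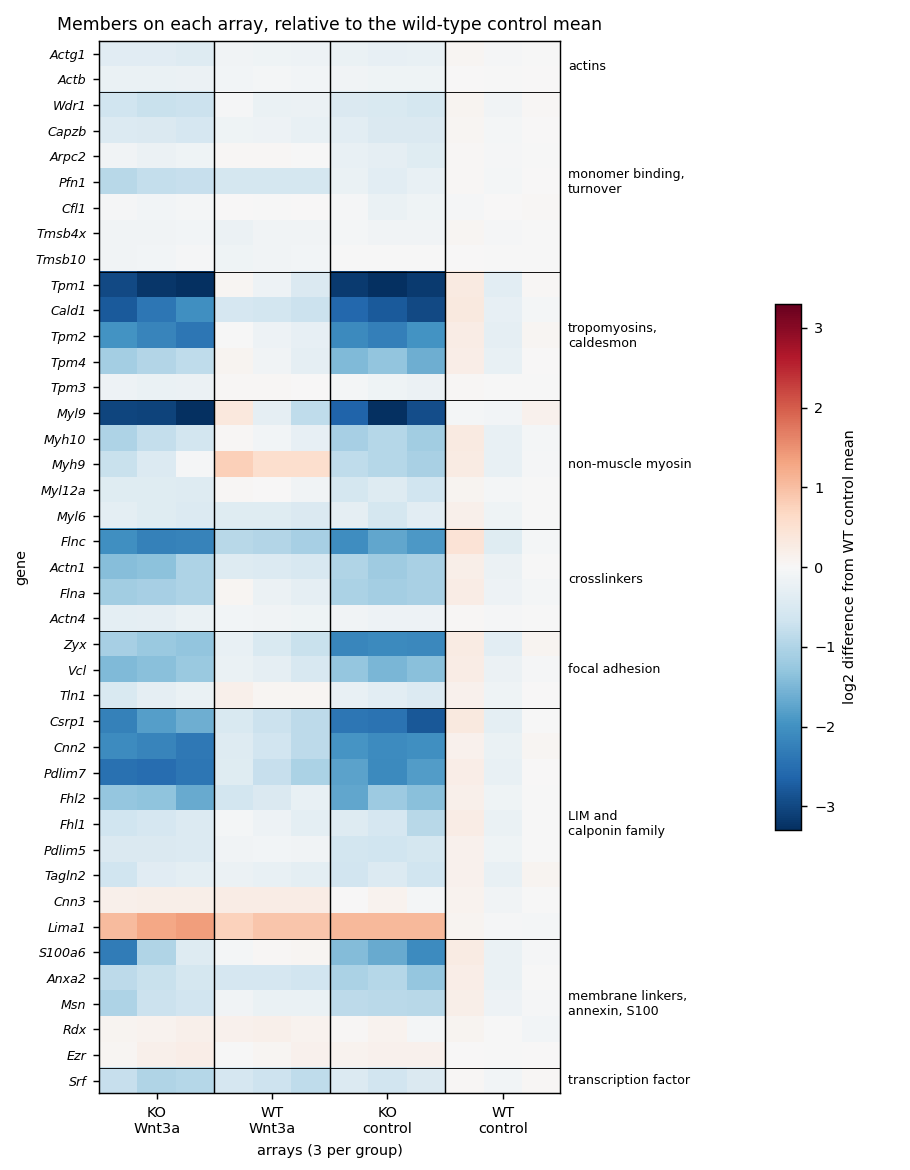
Log2 intensity of each of the 41 members on each of the 12 arrays, shown as the difference from the member's mean over the WT control arrays, with members in rows and arrays in columns (KO Wnt3a, WT Wnt3a, KO control, WT control). In the KO control columns 37 to 39 of the 41 members lie below the WT control mean.

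Tropomyosins and caldesmon, which coat filaments and limit the access of myosin and severing proteins, had the largest median difference of any role (-2.11), with members from -3.22 for Tpm1 to -0.13 for Tpm3. Tpm1, the tropomyosin of stress fibres and muscle, was at 10.11, 9.92 and 10.10 on the KO arrays in control medium, against 13.56, 12.93 and 13.31 on the WT arrays. Tpm2, its close relative, was at 9.85, 9.69 and 9.99 on the KO arrays, against 12.19, 11.65 and 12.01 on the WT arrays. Cald1, caldesmon, was at 10.32, 10.13 and 9.94 on the KO arrays, against 13.24, 12.64 and 12.85 on the WT arrays. All 3 genes were separated with no overlap, and the gap between the groups was larger than the spread within them. Tpm1 was 9.33-fold lower in KO cells (log2 difference -3.22, SE 0.17, adjusted p = 2.36e-07), and its 3 tested probe sets agreed in direction. Cald1 was 6.86-fold lower and Tpm2 4.31-fold lower. Tpm4 was lower by a smaller amount (log2 difference -1.47), and Tpm3 did not pass (-0.13, adjusted p = 0.0646). Of the 5 genes of this group, 4 were lower and none was higher.

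All 5 members listed under non-muscle myosin were lower in KO cells in control medium. They are not all genes of non-muscle myosin II: Myh14, which was higher, is given with the other myosins below. Myl9, a regulatory light chain whose phosphorylation switches on contraction, was at 7.50, 6.85 and 7.23 on the KO arrays, against 10.10, 10.06 and 10.29 on the WT arrays. The groups were far apart, with every KO array below every WT array. Myl9 was 7.76-fold lower in KO cells (log2 difference -2.96, SE 0.26, adjusted p = 3.86e-06). The heavy chains Myh10 and Myh9 differed by -1.06 and -0.94, the other listed regulatory chain Myl12a by -0.55 and the essential light chain Myl6 by -0.41 on the log2 scale. Myl6 rested on 1 rather dim probe set, with a mean of 8.38 in WT cells in control medium. A further 2 probe sets that name Myl6 among several genes were left out.

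The crosslinkers and focal adhesion genes were lower in KO cells without exception in control medium, 4 of 4 and 3 of 3. Flnc, the filamin of muscle and stressed cells, was at 8.24, 8.58 and 8.38 on the KO arrays, against 10.75, 9.88 and 10.23 on the WT arrays (log2 difference -1.88, adjusted p = 5.05e-06). Flna and Actn1 each differed by -1.08, and Actn4 by -0.15 (adjusted p = 0.0377). Zyx, zyxin, a mechanosensitive adhesion protein, was at 7.99, 8.04 and 8.02 on the KO arrays, against 10.41, 9.78 and 10.22 on the WT arrays (log2 difference -2.12, SE 0.15, adjusted p = 7.69e-07). The groups did not overlap for any of these genes. Vcl, vinculin, differed by -1.38 and Tln1, talin, by -0.34. The second Zyx probe set showed a smaller difference of -0.44, also called lower. The Actn4 call was the only one of the 32 lost when a single array was left out: its adjusted p was 0.053, 0.0782 and 0.11 without KO control array 1, 2 or 3, 0.104 and 0.093 without WT control array 1 or 3, 0.055 without WT Wnt3a array 2 and 0.0549 without KO Wnt3a array 2. It was also lost with no filter, median centring, the control-medium arrays alone or the replicate block (adjusted p from 0.0584 to 0.0848).

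The LIM and calponin family held several large falls and the single rise. Csrp1, a LIM protein that binds alpha-actinin and zyxin, was at 9.82, 9.76 and 9.41 on the KO arrays in control medium, against 12.51, 11.89 and 12.20 on the WT arrays. Cnn2, a calponin, was at 10.62, 10.48 and 10.52 on the KO arrays, against 12.70, 12.34 and 12.63 on the WT arrays. Pdlim7, a PDZ and LIM protein of stress fibres, was at 10.09, 9.77 and 10.02 on the KO arrays, against 12.08, 11.62 and 11.87 on the WT arrays. In each, all KO arrays were below all WT arrays. The falls were 5.79-fold for Csrp1, 4.04-fold for Cnn2 and 3.73-fold for Pdlim7, with log2 differences of -2.53, -2.01 and -1.90. Fhl2, Fhl1, Pdlim5 and Tagln2 were lower too, with differences of -1.43 (Fhl2) to -0.58 (Tagln2) on the log2 scale. Pdlim5 was the gene with the least support across probe sets, with 1 of its 7 tested probe sets called lower in control medium.

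Lima1 (EPLIN), which stabilises filaments and slows their branching, was the exception. Its values were 9.76, 9.77 and 9.76 on the KO arrays, against 8.78, 8.67 and 8.64 on the WT arrays in control medium. Every KO array was above every WT array (log2 difference 1.07, SE 0.09, adjusted p = 1.95e-06, a 2.1-fold rise), and all 4 of its tested probe sets were called higher. Cnn3 showed no call (0.03).

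Membrane linkers and calcium-binding genes were split. S100a6, an S100 protein of spreading and contractile cells, was at 9.80, 9.56 and 9.14 on the KO arrays in control medium, against 11.49, 11.02 and 11.18 on the WT arrays. Anxa2, annexin A2, a membrane and actin linker, was at 11.03, 11.11 and 10.79, against 12.29, 11.85 and 12.05. Both were lower without overlap, with log2 differences of -1.73 and -1.08. Msn, moesin, was lower by -0.89. Ezr and Rdx, its relatives, did not pass (0.13 and 0.03).

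The actins and the genes of monomer binding and turnover had the smallest median differences (-0.19 and -0.28). Actg1, cytoplasmic gamma-actin, was at 14.37, 14.32 and 14.33 on the KO arrays in control medium, against 14.64, 14.55 and 14.56 on the WT arrays, a difference of -0.24 (adjusted p = 0.00257). Actb, beta-actin, was at 14.58, 14.55 and 14.55 on the KO arrays, against 14.70, 14.66 and 14.70 on the WT arrays. The groups did not overlap, but the difference of -0.13 did not pass (adjusted p = 0.0578), and a second, dimmer Actb probe set was called higher in KO cells (0.39, adjusted p = 0.0454). Actb, Actg1 and Tmsb10 lay within 1 log2 unit of the brightest value on every array (15.05 to 15.14), and the gap for Tmsb4x was 0.87 to 1.12. Whether saturation reduced their differences was not tested. Wdr1, which helps cofilin sever filaments, was at 11.75, 11.71 and 11.65 on the KO arrays, against 12.31, 12.11 and 12.25 on the WT arrays (-0.52). Capzb (-0.44), Arpc2 (-0.31) and Pfn1 (-0.28) were lower, and Cfl1, Tmsb4x and Tmsb10 did not pass.

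Srf itself was lower by a modest amount in KO cells in control medium, at 9.26, 9.09 and 9.24 on the KO arrays, against 9.76, 9.62 and 9.76 on the WT arrays (log2 difference -0.51, adjusted p = 0.000666). Its second probe set read -1.20. Among the 9 members with a CArG box in the windows above, 8 were lower and 1 was higher in KO cells in control medium (median -0.63). Among the 31 without one, 24 were lower (median -0.61). Over all tested genes with a promoter, 176 held the box, of which 49 were lower (27.8%) and 33 were higher. The counts are a description, and no test was run between the 2 sets of members.

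**Figure D2:**
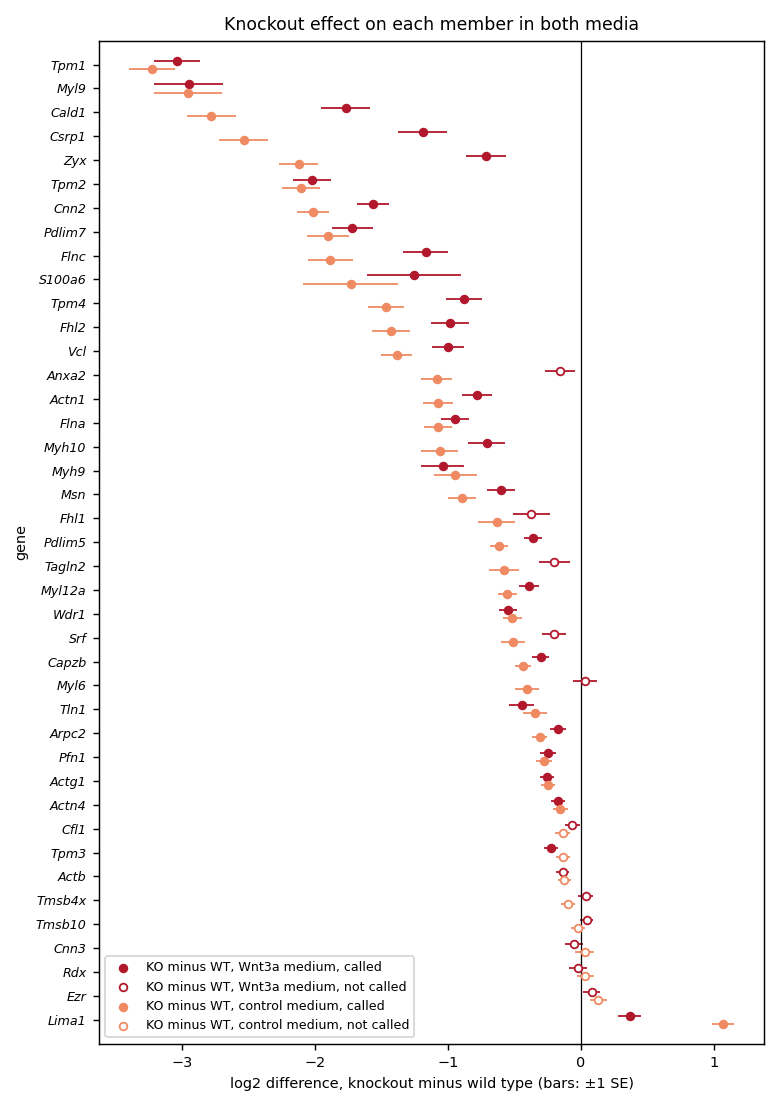
Knockout minus wild-type difference of each of the 41 members on the log2 scale with 1 SE of the limma fit, ordered by the effect in control medium, for Wnt3a medium and for control medium. Filled points are called at an adjusted p under 0.05: 32 lower and 1 higher in control medium, 28 lower and 1 higher in Wnt3a medium.

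The array carries 3 control probe sets along the Actb transcript. All 3 read lower in KO cells, by -0.17 at the 3′ end, -0.22 in the middle and -0.31 at the 5′ end in control medium. The difference of the 3′ probe set from the 5′ probe set was 0.35 ± 0.06 in KO cells and 0.21 ± 0.03 in WT cells in control medium, and 0.38 ± 0.03 in KO cells and 0.26 ± 0.02 in WT cells in Wnt3a medium (SD, n = 3 each). The KO arrays lay above the WT arrays without overlap in both media. The 3′ to 5′ difference is a common measure of RNA integrity and labelling, and the same difference for the Gapdh controls was 0.02 in KO cells and 0.01 in WT cells in control medium, and -0.06 in KO cells and -0.09 in WT cells in Wnt3a medium. Its part in the member differences was not tested.

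Cell type markers moved with the genotype in part. Smooth muscle markers (6 genes) summed to intensities of 918 to 1016 on the KO arrays in control medium, against 6711 to 11249 on the WT arrays, with Myh11 below the filter level in every group. Trophectoderm and epithelium markers (7 genes) summed to 1417 to 1881 on the KO arrays, against 21797 to 36342 on the WT arrays, with Elf5 below the filter level. The sums of the 10 fibroblast and feeder markers overlapped, at 675 to 871 on the KO arrays against 679 to 792 on the WT arrays, with Col3a1 and Lum below the filter level, as was Col1a1 in KO cells. Of the 8 of these markers tested, 3 were called higher in KO cells (Pdgfra 1.10, Thy1 0.86 and Pdgfrb 0.27) and 3 lower (Col1a1, Col1a2 and S100a4, -0.68 to -0.55), with a median of -0.23. The 7 endoderm markers summed to 494 to 2250 on the KO arrays against 652 to 847 on the WT arrays, with Afp below it, as was Sox17 in WT cells. In Wnt3a medium the smooth muscle sums were 840 to 1013 against 7844 to 9178 and the trophectoderm and epithelium sums 1405 to 1593 against 16574 to 20977. Sums are weighted to the brightest genes. Of 5 smooth muscle markers tested, 5 were called lower in KO cells in control medium and 4 in Wnt3a medium, with none higher. Of 6 trophectoderm and epithelium markers tested, 5 were lower in each medium and 1 was higher in Wnt3a medium. The shares of all genes called lower were 22.3% and 14.7%. Acta2 and Cnn1 belong both to the smooth muscle markers and to the SRF target genes described below. Whether the markers and the members share a source was not tested.

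With Wnt3a present the difference remained, at a smaller size. In Wnt3a medium 28 members were lower and 1 was higher in KO cells, with 14.7% of all genes called lower and 13.2% called higher. The median difference was -0.39, beside 0.01 over all genes, and 32 members did not overlap in the lower direction, as did 22.3% of all genes. Of the members, 27 were called lower in both media, 5 in control medium but not in Wnt3a medium, 1 in Wnt3a medium but not in control medium (Tpm3), and 7 in neither. The Tpm3 difference was -0.22 in Wnt3a medium and -0.13 in control medium, with an interaction of -0.09 (adjusted p = 0.536). In control medium 3 of its 4 tested probe sets were called lower, against 2 in Wnt3a medium, and the gene passed there with the mean of its probe sets (0.0277), a stricter filter (0.0416), repeated quantile normalization (0.0349), an intensity trend (0.00543) or without KO control array 1 (0.0435). The difference was smaller in Wnt3a medium for 32 of the 41 members. The same count over all genes was not taken. The share of all genes called lower by at least 2-fold was also smaller in Wnt3a medium, at 2.17% beside 4.24% in control medium. The smaller size was therefore not shown to be particular to the members. Across the 41 genes, the effects in the 2 media had a Pearson r of 0.92, beside 0.87 across all genes; the genes are not independent replicates, and the 2 comparisons use different arrays.

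Tpm1, Myl9 and Tpm2 had the largest differences in Wnt3a medium. Tpm1 was at 10.28, 10.06 and 9.77 on the KO arrays with Wnt3a, against 13.32, 13.10 and 12.80 on the WT arrays. Myl9 was at 7.12, 7.08 and 6.60 on the KO arrays, against 10.51, 9.85 and 9.30 on the WT arrays. Tpm2 was at 9.98, 9.78 and 9.57 on the KO arrays, against 11.94, 11.77 and 11.69 on the WT arrays. No KO array reached a WT array. The log2 differences were -3.04 (SE 0.17, adjusted p = 7.84e-07), -2.95 (SE 0.26, adjusted p = 1.34e-05) and -2.02 (SE 0.14, adjusted p = 3.28e-06). Cald1 fell by 1.77, Cnn2 by 1.56, Pdlim7 by 1.72 and Csrp1 by 1.19 on the log2 scale.

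Of the members called lower in control medium, Srf, Anxa2, Fhl1, Tagln2 and Myl6 were not called in Wnt3a medium. The differences there were -0.20 for Srf (adjusted p = 0.124 on its brightest probe set) and -0.16 for Anxa2 (adjusted p = 0.347). Among these genes only Anxa2 had a called interaction, so a change between media was not shown for the others. Fhl1 (-0.37, adjusted p = 0.0648) passed in Wnt3a medium with an intensity trend (0.0431) or the Wnt3a arrays alone (0.0289). It also passed without KO control array 3 (0.0363) or WT control array 1 (0.0466). The other Srf probe set was called lower in Wnt3a medium (-0.74, adjusted p = 0.000184), as was the mean of the Srf probe sets (-0.47, adjusted p = 0.00134). The call for S100a6 (-1.25, adjusted p = 0.0209) rested on a group with wide spread, at 8.93, 10.24 and 10.81 on the KO arrays with Wnt3a against 11.16, 11.28 and 11.29 on the WT arrays, and the adjusted p was 0.0572 without WT Wnt3a array 2 and 0.0788 in a fit of the Wnt3a arrays alone. Arpc2 (-0.17, adjusted p = 0.0483) lost its call without 10 of the 12 arrays, with adjusted p from 0.0512 to 0.154, the exceptions being KO control arrays 1 and 3. Actn4 (-0.17, adjusted p = 0.036) lost its call without WT Wnt3a array 1 or 2, KO Wnt3a array 1 or 2, WT control array 3 or KO control array 3, with adjusted p from 0.0517 to 0.11. Both were also lost with no filter, median centring, the Wnt3a arrays alone or the replicate block (adjusted p from 0.0544 to 0.0835), and Capzb (-0.30) on the mean of its probe sets (0.0551). Lima1 was higher in KO cells by 0.37 (adjusted p = 0.00736), at 9.73, 9.98 and 10.08 against 9.46, 9.61 and 9.62, with 1 of its 4 tested probe sets called. On the mean of its probe sets the difference was 0.11 and did not pass (adjusted p = 0.423).

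**Figure D3:**
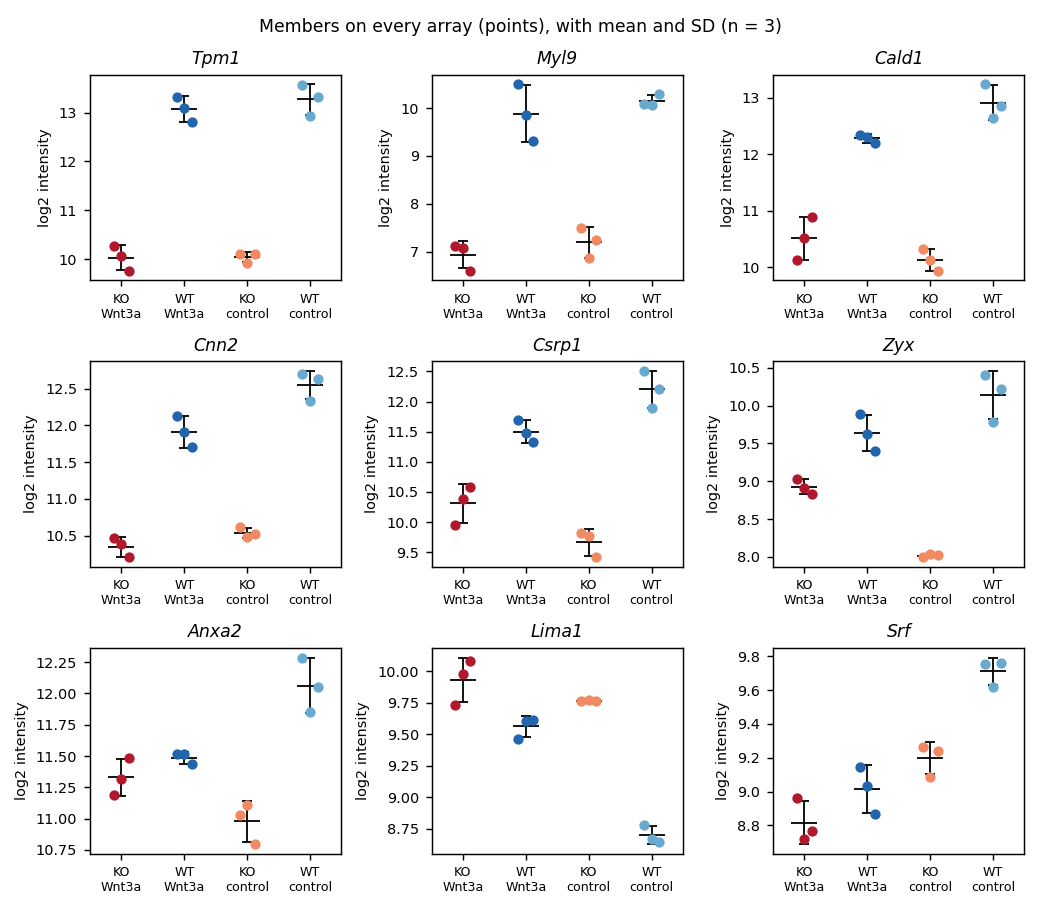
Log2 intensity of selected members on each of the 12 arrays, 1 panel per gene, with groups in the order KO Wnt3a, WT Wnt3a, KO control, WT control, 1 point per array, and the group mean and SD as bars (n = 3). The vertical axes differ between panels. Tpm1 and Myl9 keep their KO deficit in both media, while Zyx and Csrp1 move up with Wnt3a in KO cells and down in WT cells.

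Between media in WT cells, more members were lower with Wnt3a than were higher. In WT cells, 15 members were lower with Wnt3a and 3 were higher, with 22.6% of all genes called lower and 18.9% called higher. The median was -0.15, beside -0.02 over all genes. The called lower genes were Flnc, Pdlim7, Csrp1, Srf, Cnn2, Cald1, Pfn1, Anxa2, Zyx, Actn1, Fhl2, Myl6, Vcl, Capzb and Actg1. Flnc was at 9.37, 9.33 and 9.18 with Wnt3a, against 10.75, 9.88 and 10.23 in control medium (-0.99, adjusted p = 0.000875). Pdlim7 was at 11.46, 11.10 and 10.81 with Wnt3a, against 12.08, 11.62 and 11.87 (-0.73, adjusted p = 0.00312). In both genes the 3 Wnt3a arrays were below the 3 control arrays. Srf fell by 0.70, at 9.15, 9.03 and 8.87 with Wnt3a against 9.76, 9.62 and 9.76. Lima1 was higher, at 9.46, 9.61 and 9.62 with Wnt3a against 8.78, 8.67 and 8.64 (0.86, adjusted p = 2.87e-05). The other 2 higher genes were Myh9 (0.63) and Cnn3 (0.24). Myh9 was higher only through its brightest probe set, since another of its 5 tested probe sets was called lower. Among the lower genes, another probe set was called higher for Vcl (0.71, adjusted p = 0.00146) and for Capzb (0.25, adjusted p = 0.00549).

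Several of these WT calls leaned on WT control array 1. Without it 9 members were lower, and the adjusted p values were 0.0771 for Cald1, 0.0769 for Zyx, 0.11 for Fhl2, 0.121 for Vcl, 0.0955 for Capzb and 0.139 for Actg1. Zyx was also lost without WT control array 3 (0.0638) or WT Wnt3a array 3 (0.0743), Cald1 without WT Wnt3a array 3 (0.0553), Fhl2 without WT control array 3 (0.0666) or WT Wnt3a array 1 or 2 (0.1 and 0.0755). Vcl was lost without WT control array 3 (0.0586) or WT Wnt3a array 2 or 3 (0.0531 and 0.116), and Capzb without WT control array 3 (0.095) or WT Wnt3a array 2 or 3 (0.0662 and 0.099). Actg1 was lost without every array but WT control array 2, with adjusted p from 0.0508 to 0.139. Cnn3 was lost without WT control array 2 (0.0592). On the mean of all probe sets of a gene, Cald1 (adjusted p = 0.402) and Anxa2 (0.073) lost their calls. Vcl, Capzb and Myh9 lost theirs and changed sign. The same setting gave new higher calls to Rdx (0.56, adjusted p = 5.53e-05), Pdlim5 (0.42), Actb (0.25) and Tpm3 (0.13). Its new lower calls, from -0.31 to -0.14, were those of Tln1, Cfl1, Tagln2, Tmsb10, Myl12a, Ezr and Tmsb4x. The median intensity was lower on the Wnt3a arrays, as given above. Centring each array on its median ended the calls of Fhl2 (0.0504), Vcl (0.0766), Capzb (0.174) and Actg1 (0.332). The Actg1 difference was -0.14 before centring and -0.07 after it. A fit of the WT arrays alone ended the calls of Zyx (0.0604), Vcl (0.0623), Capzb (0.0553) and Actg1 (0.0989). Actg1 was also lost with no filter (0.0653) and with the replicate block (0.0638). Repeated quantile normalization ended that of Cnn3 (0.0551).

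In KO cells few members were called between media on their brightest probe sets. Of the 41, 3 were lower with Wnt3a (Pdlim7, Pfn1 and Srf) and 5 were higher (Zyx, Csrp1, Myh9, Tpm4 and Anxa2), with 14.7% of all genes called lower and 13.3% called higher. The share of members called higher (12.2%) was thus near that of all genes. Over the 97 tested probe sets of the members, 11 were lower and 26 higher, beside 16% and 14.9% of all probe sets. Zyx was at 9.03, 8.91 and 8.83 with Wnt3a, against 7.99, 8.04 and 8.02 in control medium (0.91, SE 0.15, adjusted p = 0.00125). Csrp1 was at 9.96, 10.38 and 10.59 with Wnt3a, against 9.82, 9.76 and 9.41 (0.64, adjusted p = 0.0228). Pdlim7 was at 9.39, 9.34 and 9.48 with Wnt3a, against 10.09, 9.77 and 10.02 (-0.55, adjusted p = 0.0211). The Wnt3a and control arrays did not overlap for any of the 3. The second Zyx probe set was called lower (-0.29), so the rise of Zyx was seen on its brighter probe set alone. Srf was at 8.96, 8.72 and 8.77 with Wnt3a, against 9.26, 9.09 and 9.24 (-0.38, adjusted p = 0.0093).

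The number of higher members depended on single arrays. It was 1 without KO control array 3, KO Wnt3a array 2 or KO Wnt3a array 3, 3 without KO control array 1, and 8 without KO Wnt3a array 1. Csrp1, Tpm4, Myh9 and Anxa2 were each lost without KO control array 3 (adjusted p 0.0976, 0.0895, 0.104 and 0.158), KO Wnt3a array 2 (0.0714, 0.0581, 0.0621 and 0.0857) or KO Wnt3a array 3 (0.0827, 0.0714, 0.0991 and 0.131). Tpm4 and Anxa2 were also lost without KO control array 1 (0.0539 and 0.0679), Myh9 without KO control array 2 (0.0628), and Anxa2 without WT control array 3 (0.0559) or WT Wnt3a array 2 (0.0532). Pdlim7 was lost without KO control array 1 (0.0734), KO control array 3 (0.0716) or KO Wnt3a array 2 (0.0674). Zyx, Pfn1 and Srf kept their calls when any single array was left out. On the mean of all probe sets Pdlim7 (0.105), Srf (0.287), Anxa2 (0.115) and Myh9 (0.743, with the sign changed) lost theirs. After repeated quantile normalization Anxa2 (0.112), Tpm4 (0.0531) and Myh9 (0.0596) did. The mean of all probe sets also gave new higher calls to Msn (0.48), Cald1 (0.48), Lima1 (0.45), Rdx (0.40), Cnn3 (0.26) and Pdlim5 (0.24). Its new lower calls, from -0.57 to -0.15, were those of Actn1, Cfl1, Ezr and Actg1. The replicate block ended the call of Anxa2 (0.0611).

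**Figure D4:**
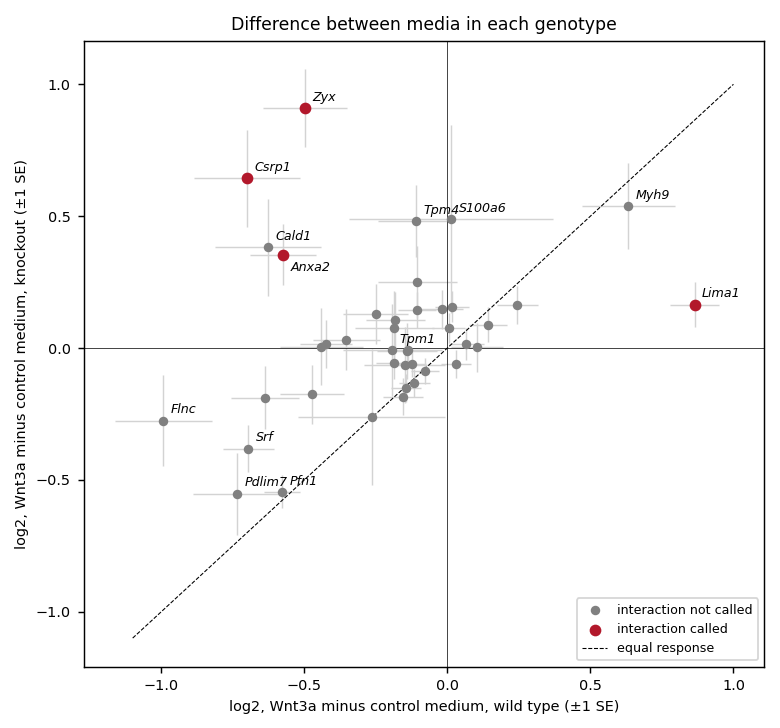
Wnt3a effect in KO cells (vertical axis) against the Wnt3a effect in WT cells (horizontal axis) for each member, log2 difference with Wnt3a minus control medium, 1 point per gene with 1 SE, and members with a called interaction in red. Zyx, Csrp1 and Anxa2 lie above 0 in KO cells (0.91, 0.64 and 0.35) and below 0 in WT cells (-0.50, -0.70 and -0.57), and Lima1 lies at 0.86 in WT cells and 0.16 in KO cells.

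The Wnt3a effect differed between genotypes for 4 members by the interaction test, with 2.2% of all genes called higher and 1.88% called lower. The effect was more positive in KO than in WT cells for Zyx (1.41, SE 0.21, adjusted p = 0.0067), Csrp1 (1.34, SE 0.26, adjusted p = 0.0204) and Anxa2 (0.93, SE 0.16, adjusted p = 0.0132). Anxa2 was at 11.19, 11.32 and 11.49 on the KO arrays with Wnt3a, against 11.03, 11.11 and 10.79 in control medium, while WT cells were at 11.52, 11.51 and 11.43 with Wnt3a, against 12.29, 11.85 and 12.05. Anxa2 thus rose in KO cells and fell in WT cells, without overlap in either. For Lima1 the effect was less positive in KO cells (-0.70, SE 0.12, adjusted p = 0.0122). The Csrp1 call was lost without WT control array 3 (0.057), KO control array 3 (0.0511), WT Wnt3a array 2 (0.0522) or KO Wnt3a array 2 (0.0526). On the mean of its probe sets Anxa2 did not pass (0.37, adjusted p = 0.0827). Cald1 (1.01, adjusted p = 0.0537) did not pass either. Without WT control array 2, 8 members were called more positive.

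**Figure D5:**
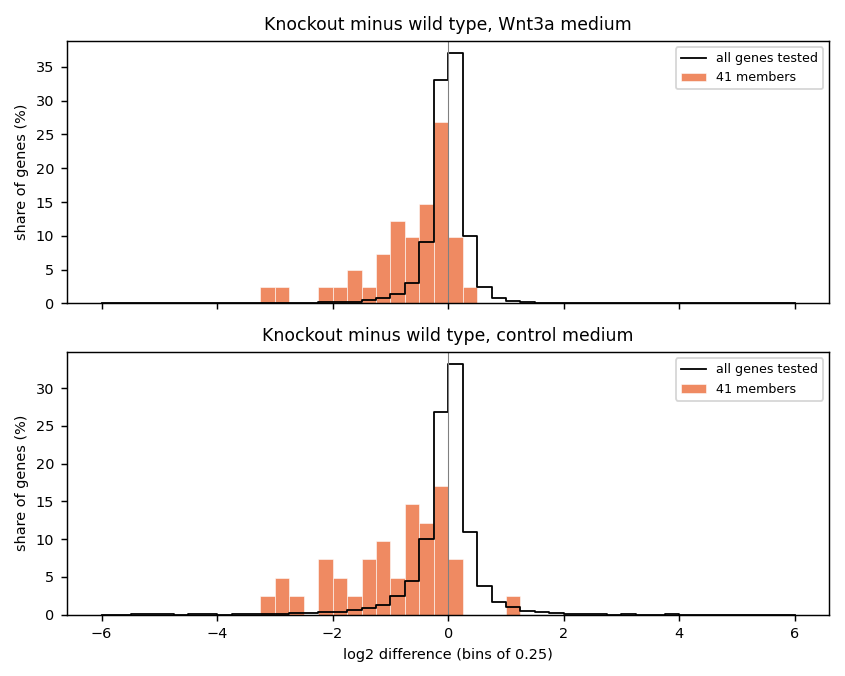
Log2 difference KO minus WT (horizontal axis) and share of genes in percent (vertical axis) for the 41 members (bars) and all 13811 genes (line), in Wnt3a medium (upper panel) and control medium (lower panel). The member medians are -0.39 and -0.61, and the median of all genes is 0.01 in each.

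In control medium, 63 of the 97 tested probe sets were called lower and 5 higher, with 18.2% of all 28483 probe sets lower and 18% higher. In Wnt3a medium 58 were lower and 1 was higher, with 13.2% and 10.8% of all probe sets. No member had tested probe sets called in opposite directions between genotypes in either medium, but for Actb 1 probe set was called higher in control medium (0.39, adjusted p = 0.0454) while the probe set used for the gene read -0.13 and the 3 array controls read lower. Between media, 31 probe sets were lower and 23 higher with Wnt3a in WT cells (21.7% and 20.8% of all probe sets), and 11 were lower and 26 higher in KO cells (16% and 14.9%). There, 3 members in each genotype had probe sets called in opposite directions. These were Capzb, Myh9 and Vcl in WT cells, and Cald1, Myh9 and Zyx in KO cells. The interaction was called lower for 4 probe sets and higher for 4, with 2% and 1.58% of all probe sets.

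The surrounding actin genes were taken from fixed lists and counted by call. The shares of all genes called in control medium were 22.3% lower and 19.9% higher, with a median of 0.01. The other SRF and Mrtf target genes had 13 of 15 tested genes lower and 1 higher in KO cells in control medium, with a median of -1.67. Tagln (transgelin), Acta1 (skeletal alpha-actin) and Cnn1 (smooth muscle calponin) differed by -5.49, -4.81 and -4.48, and Tagln3 by 0.35. Thbs1, another target, was below the filter level in KO cells and at least 18.8-fold lower. The Arp2/3 complex and nucleators had 13 of 17 lower and 1 higher (median -0.32), led by Arpc5 (-1.25), Daam1 (-0.80) and Cttn (-0.69), with Was at 0.47. Other focal adhesion genes had 8 of 16 lower and 2 higher (median -0.28), led by Parva (-3.05), Tgfb1i1 (-2.31) and Lpp (-2.06). Parva encodes a partner of integrin-linked kinase, and Lpp is a relative of zyxin. Turnover, capping and bundling genes had 7 of 18 lower and 3 higher, with a median of -0.14, and the share called higher was near that of all genes. In this list Gsn, the severing protein gelsolin, was at -3.41, Pls3 at -1.27 and Cfl2 at -0.71. The genes called higher in the focal adhesion and turnover lists are not named here. Other myosins had 6 of 11 lower and 1 higher, with a median of -0.21 (Myo1c -0.90, Myh14 0.82).

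Of 7 SRF partners tested, 4 were lower in KO cells in control medium and none was higher (median -0.22), beside the 22.3% and 19.9% of all genes. Elk3, a ternary complex factor, differed by -1.37, Elk4 by -0.42, Mrtfb by -0.28 and Mrtfa by -0.22. Myocd passed the filter but had a mean below its level in every group, and it was not called. SRF early response genes, which ternary complex factors drive, had 2 of 8 tested genes lower (Ier3 -1.13 and Junb -0.71) and 1 higher, Egr1, at 1.45 (adjusted p = 2.48e-06). These counts are near the shares of all genes. In Wnt3a medium Egr1 was again higher in KO cells (0.97), and the other SRF and Mrtf targets again had 13 of 15 lower and 1 higher, with Tagln at -5.35. The lists were put together with earlier results of these data known, so the counts are descriptions.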

How the data were processed

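The authors deposited a single table of intensity values for 12 Affymetrix arrays. RMA is named per the submitters' processing notes (version not given in the sources used here). Intensities as deposited were on a linear scale (lowest values 9.26 to 9.97 per array), so log2 was taken with no pseudocount. With 3 arrays in each group, precision is limited. Names came from the platform annotation and RefSeq tables of GRCm38.p6, which also gave promoters.

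Each gene was represented by its brightest probe set and kept if at least 3 arrays exceeded the 40th percentile of values (log2 5.56), leaving 13811 genes. One model of group means over all 12 arrays was run in limma 3.58.1 (R 4.3.3; lmFit, then eBayes), with Benjamini-Hochberg adjustment over all genes and a threshold of 0.05. The same model was run on 28483 probe sets. The interaction is the Wnt3a effect in KO minus that in WT cells. The scripts were tested on simulated data. Alternatives were the mean of all probe sets, no or a stricter filter, median centring, repeated quantile normalization, a replicate block, an intensity trend, only the arrays compared, and each array left out.

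Values on every array are printed for the 8 members with the largest knockout effect in control medium, the 3 called members with the largest change in each other comparison, the largest mover of each role, and Srf, Actb and Actg1. Up to 3 called genes per direction are named from the other lists. The exceptions are the focal adhesion and turnover lists, from which no higher gene is named. Thbs1 and Mrtfa, outside this rule, were chosen after their values were seen. One of the other lists is not reported here. The members and lists were chosen with earlier results of these data known.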

Additional observations from a re-analysis of the deposited data

Results flagged for a closer look

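The Wnt3a effect differed between KO and WT cells, by the interaction test of the limma fit, for 4 members. The interaction was 1.41 for Zyx, 1.34 for Csrp1, 0.93 for Anxa2 and -0.70 for Lima1 on the log2 scale (KO effect minus WT effect). The second probe set of Zyx had an interaction of 0.06 and no call, while both probe sets of Csrp1 were called (1.34 and 1.32), as were 3 of the 4 tested probe sets of Lima1. Of the 2 tested Anxa2 probe sets, 1 was called.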

How the results depend on the processing

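The knockout effect was the most stable result. In control medium the members called lower numbered 31 to 33 and those called higher 1 over the fits that left out an array each, and in Wnt3a medium 25 to 28 and 1. Between media in WT cells, 9 to 19 members were lower with Wnt3a and 2 to 3 were higher. Those in KO cells numbered 2 to 4 lower and 1 to 8 higher, and the interaction gave 2 to 8 higher and 1 lower. With the mean of all probe sets the knockout effect in Wnt3a medium had 0 higher members, the Wnt3a effect in WT cells had 6 higher, and that in KO cells had 5 lower and 9 higher. In KO cells, 6 members were lower with Wnt3a after repeated quantile normalization and 7 with an intensity trend. Members higher with Wnt3a in KO cells numbered 2 after quantile normalization and 9 with median centring. The cause of these moves was not tested.

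Among values called in either fit, signs turned only with the mean of all probe sets, which averages probe sets that differ. For Wnt3a in WT cells the values became 0.25 for Actb, -0.25 for Cfl1, 0.0599 for Capzb, -0.11 for Myh9, 0.18 for Vcl, -0.31 for Tln1, 0.42 for Pdlim5 and -0.17 for Ezr. For Wnt3a in KO cells they became -0.21 for Cfl1, -0.0705 for Myh9 and -0.15 for Ezr. Over all members and settings, 3850 values kept their side of the threshold (those called in neither fit may differ in sign), 113 lost and 85 gained a call, and 11 turned.

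With the replicate number as a replicate block, the members lower in KO cells numbered 31 in control medium and 26 in Wnt3a medium. Between media, 14 were lower and 3 higher with Wnt3a in WT cells, and 3 were lower and 4 higher in KO cells. The calls it ended were those of Actn4 in both media, Arpc2 in Wnt3a medium, Actg1 with Wnt3a in WT cells (adjusted p = 0.0638) and Anxa2 with Wnt3a in KO cells (0.0611). The numbers gave no sign of pairing the samples: 4 of 18 same-numbered pairs of arrays had deviations correlated above 0.1 (-0.26 to 0.24), and 4 of 12 arrays correlated best with their own number. Pairs with different numbers ranged from -0.30 to 0.34. Such weak correlations cannot settle whether equal numbers shared a culture or a preparation.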
